A study of Mus musculus with 12 samples.

Results

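Gene expression after doxorubicin (DOX) was compared in mouse hearts that carry a change in CHIP, with all probe sets of the array and the 6 arrays that the labels place in this comparison, out of 12 arrays in the series. The saline group held 3 hearts labelled as CHIP knockout with no DOX, and the DOX group held 3 hearts with the same genotype label taken at day 5 after 1 dose of DOX. By the labels, the mice were C57BL/6J males of 8 to 10 weeks and the dose was 15 mg/kg. The study's methods instead describe a cardiac-specific CHIP transgene, slightly older mice, a higher dose and saline injections in the controls, so these hearts are called CHIP-altered here and their controls saline hearts. The remaining arrays, 3 from wild-type (WT) saline hearts and 3 from WT hearts given DOX, were used only to estimate the spread and to show where the responses differ. The labels call the arrays of a group biological replicates, and the sources used here do not state whether an RNA sample came from 1 heart or from a pool.

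DOX is an anthracycline used against cancer. It enters DNA, traps topoisomerase II on the broken strands and drives redox cycling, and the heart, which depends on mitochondrial fatty acid oxidation, is the organ whose injury limits its use. CHIP, encoded by Stub1, is a cochaperone that binds HSP70 and HSP90 and a ubiquitin ligase that marks misfolded clients for the proteasome. The labels and the study's methods disagree on the direction of the CHIP change, and the Stub1 probe sets were therefore read first. Probe set 1416580_a_at gave 8762, 9817 and 9655 in the 3 saline hearts and 5561, 7998 and 8723 after DOX, against 1857, 1831 and 1790.3 in WT saline hearts. Its mean in CHIP-altered saline hearts was 5.15 times that in WT saline hearts, which goes against the label of a knockout. The second probe set, 1434412_x_at, gave 1058, 1070.2 and 1122 in CHIP-altered saline hearts and 1215, 1092 and 1037 in WT saline hearts, and these ranges overlap. Neither Stub1 probe set passed the test for DOX, with log2 fold changes of -0.36 (adjusted p = 0.205) and 0.14 (adjusted p = 0.508) from limma.

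The 6 arrays had median intensities from 28.98 to 30.4 on the linear scale of the deposited values. Saline replicate 3 stood apart from its group. It differed more than 2-fold from the mean of the other saline hearts in 259 probe sets, against 59 for saline replicate 1, 104 for saline replicate 2 and 11 to 28 for the DOX hearts measured in the same way. Of the 10 genes in which it lay farthest away, all 10 were higher in it. Cxcl13, a chemokine that attracts B cells, read 29.2, 14.1 and 1622 in the 3 saline hearts. Lcn2, the iron-binding lipocalin of acute inflammation, read 19.1, 30.3 and 1534. The neutrophil calgranulin S100a8 read 87.1, 314 and 2337, and Cdkn1a, the p53 target p21, read 419, 345 and 2794. The group also held Prg4, Serpina3n, S100a9, Apod, Mmp3 and Saa3. For each of these 10 genes saline replicate 3 lay above all 3 DOX hearts too. The neutrophil markers summed to 5470 in this heart, against 445 and 973 in the other saline hearts and 1053 to 2893 after DOX. Most of the 5470 came from S100a8 and S100a9, which are among the 10 genes above, so the sum largely restates their values. Every result below was therefore also computed without saline replicate 3.

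**Figure D1:**
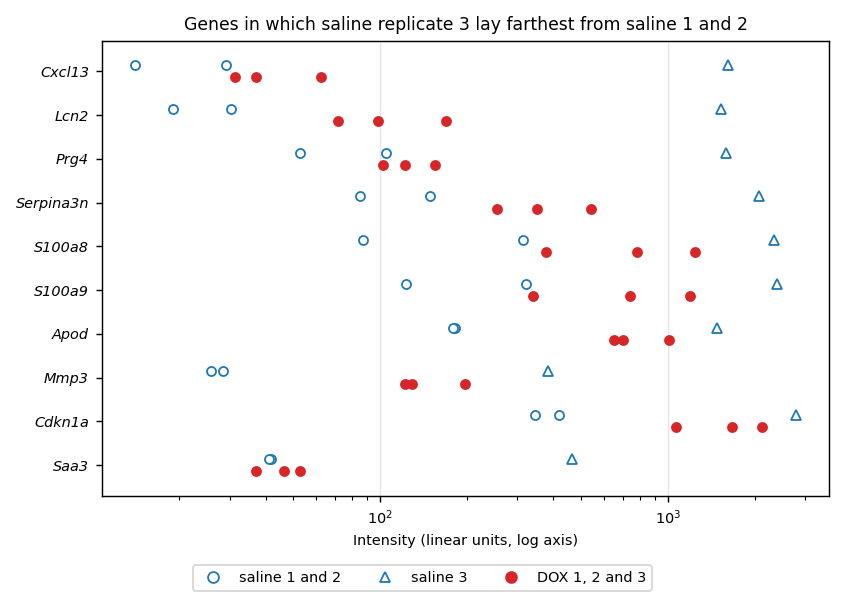
Intensity on a log axis (linear units) of the 10 genes in which saline replicate 3 lay farthest from saline replicates 1 and 2, with 1 point per array. In all 10 genes the triangle, saline replicate 3, lies to the right of both open circles and of the 3 filled DOX points.

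A probe set was called when the Benjamini-Hochberg adjusted p from limma, on log2 intensities with 32 added, was under 0.05. By this rule 329 probe sets were higher after DOX (0.731% of 45037 tested) and 661 were lower (1.47%). Together these 990 calls named 243 genes that rose and 514 that fell. Changes of 2-fold or more were found in 32 of the probe sets that rose and 34 of those that fell. Without saline replicate 3, 225 probe sets were higher (0.500%) and 465 lower (1.03%), and 489 probe sets were called in both analyses, all in the same direction. These 489 are 49.4% of the calls made with all arrays and 70.9% of those made without saline replicate 3. The number of calls depended on other single hearts too: without DOX replicate 1 there were 116, without DOX replicate 2 there were 302, and without saline replicate 1 there were 582. With the 6 CHIP-altered arrays fitted alone, so that their own spread was used, 79 probe sets were called. The 3 DOX hearts lay wholly above the 3 saline hearts in 11.1% of all probe sets and wholly below them in 9.59%. After quantile normalization 45.2% of calls were higher, against 33.2% as deposited and 24.2% after subtracting each array's median, so the balance of rises and falls depends on the scaling.

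The largest falls were those of haemoglobin. The 4 called probe sets with the most negative fold changes are all annotated to several haemoglobin genes, 3 of them to alpha chain genes and 1 to beta chain genes, so no single gene can be named for them, and they were singled out after their values were seen. The alpha chain probe set 1428361_x_at read 18574, 22880.0 and 7920.3 in saline hearts and 195, 435 and 176 after DOX. The beta chain probe set 1417184_s_at read 9772, 14097 and 3745 in saline hearts and 144, 192 and 165 after DOX. Every DOX heart was far below every saline heart, and saline replicate 3 was the lowest of its group in both. The log2 fold changes were -5.74 ± 0.63 (SE; adjusted p = 0.0064) and -5.35 ± 0.47 (adjusted p = 0.00497), and both remained called in all 6 analyses that left out 1 array. In WT hearts the same probe sets changed by -6.62 and -6.03. Haemoglobin transcripts belong to young red cells, and in bulk tissue fewer cells of a type cannot be told apart from less RNA per cell. Of the 11 measured erythroid genes with a probe set of their own, 1 was called lower, a dim probe set of Hbb-b2 (69.4, 88.2 and 78.4 in saline, 29.7, 39 and 37.9 after DOX, adjusted p = 0.0251, and 0.057 without saline replicate 3). These 11 genes, which leave out the 4 probe sets above, summed to 1476 to 2234 in saline hearts and 1895 to 1904 after DOX. Alas2, which starts haem synthesis in red cell precursors, read 146, 304 and 56.3 in saline hearts and 20, 22 and 31.7 after DOX and did not pass (adjusted p = 0.185).

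A gene of iron uptake and a gene of haem synthesis fell as well. Tfrc, the transferrin receptor through which cells take up iron, read 1379, 1678 and 917 in saline hearts and 118, 219 and 472 after DOX. The groups did not overlap, although DOX replicate 3 kept more signal than the other DOX hearts. Its log2 fold change was -2.31 ± 0.41 (adjusted p = 0.0262), and it was -2.54 (adjusted p = 0.0363) without saline replicate 3. The call was lost without any one of DOX replicate 1, DOX replicate 2, saline replicate 1 or saline replicate 2, with adjusted p-values up to 0.0819. Alas1, the rate-limiting enzyme of haem synthesis outside red cells, read 1272, 1509.9 and 1262 in saline hearts and 467, 644 and 706 after DOX. Its log2 fold change was -1.13 ± 0.17 (adjusted p = 0.0176), lost without DOX replicate 1 (adjusted p = 0.0599). Tfrc and Alas1 were the 2 members called among 17 measured genes of iron handling, where the median log2 fold change was -0.06. The ferritin heavy chain Fth1 (0.25, adjusted p = 0.126) and the iron exporter Slc40a1 (0.48, adjusted p = 0.5) did not pass. Tfrc is also abundant in red cell precursors, and the part of the haemoglobin fall in its change was not tested.

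The 15 genes with the largest rises that were called with and without saline replicate 3 were led by Fam107a, an actin-associated stress-responsive gene. Fam107a read 127, 60.2 and 193 in saline hearts and 834, 740.3 and 302 after DOX (log2 fold change 2.03, adjusted p = 0.0373), and its WT fold change was 2.31. This call was lost without any one of DOX replicate 1, DOX replicate 2, saline replicate 1 or saline replicate 2, with adjusted p-values up to 0.14 by limma. Inmt, which methylates indole amines, read 530.1, 254 and 303 in saline hearts and 1482, 1068 and 1597 after DOX (log2 fold change 1.88, adjusted p = 0.0103). The groups were apart in both, by construction of the list. Nampt, the rate-limiting enzyme of NAD salvage, read 1247, 824 and 782 in saline hearts and 2605, 2165 and 1996 after DOX (log2 fold change 1.24, adjusted p = 0.0207). Myot, the Z-disc protein myotilin, read 67.8, 58.2 and 63.1 in saline hearts and 183, 161 and 212 after DOX (log2 fold change 1.19, adjusted p = 0.00766). Myot was called in all 6 analyses that left out 1 array. Shld1, a subunit of the shieldin complex that protects DNA ends from resection, read 399, 256 and 195 in saline hearts and 824, 822 and 761 after DOX (log2 fold change 1.46, adjusted p = 0.0112). The CHIP-altered saline hearts were the low ones for Shld1, since WT hearts read 711, 822 and 678 with saline and 760.0, 845 and 642 with DOX. The other members of this group were Slc25a34, H2ac19, Spock2, Cnksr1, Sh3rf2, Synpo, Acss1, Wipf3, Retsat and 2310010J17Rik, with log2 fold changes from 0.99 to 1.55.

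The histone signal rose across several probe sets. H2ac19, a replication-type H2A histone, read 481, 417 and 501 in saline hearts and 1387, 1238 and 1248 after DOX on a probe set that may bind related histone transcripts (log2 fold change 1.41, adjusted p = 0.00497). It was called in all 6 analyses that left out 1 array. Of 5 probe sets annotated to 13 histone H4 genes at once, 2 were called higher. One of them, 1428014_at, read 189.9, 187 and 196 in saline hearts and 689.6, 673 and 793 after DOX (log2 fold change 1.75, adjusted p = 0.00553). The saline hearts were nearly equal there, and so were the DOX hearts. These H4 probe sets were also singled out after their values were seen.

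**Figure D2:**
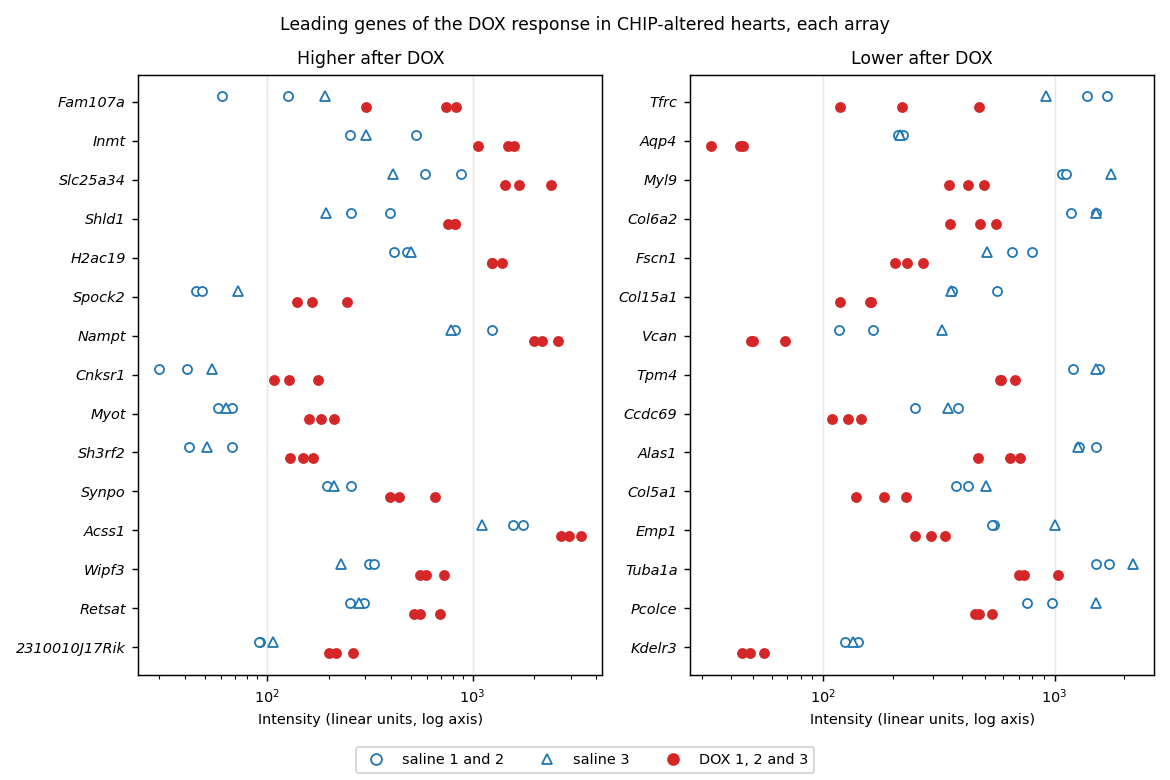
Intensity on a log axis (linear units) of the 15 genes with the largest rises (left) and the 15 with the largest falls (right) among genes called with and without saline replicate 3, with 1 point per array. Open symbols are saline hearts, the triangle being saline replicate 3, and filled points are DOX hearts, which do not overlap the saline hearts because the list was chosen so.

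The 15 genes with the largest falls, haemoglobin aside, held Tfrc, Alas1 and a group of matrix and actin genes. Aqp4, a water channel, read 221, 211 and 215 in saline hearts and 45.2, 43.9 and 32.9 after DOX, with a log2 fold change of -1.78 ± 0.17 (adjusted p = 0.00497). The saline hearts agreed closely, and saline replicate 3 lay between the other saline hearts. Kdelr3, a receptor that returns proteins to the endoplasmic reticulum, read 142, 124 and 135 in saline hearts and 44.7, 55.5 and 48.2 after DOX. Its adjusted p of 0.000172 was the lowest among the 30 leading genes (log2 fold change -1.03, limma). Fscn1, which bundles actin, fell by 1.35 on the log2 scale (adjusted p = 0.00753) and the tropomyosin Tpm4 by 1.16 (adjusted p = 0.00753). Aqp4, Kdelr3, Fscn1 and Tpm4 were each called in all 6 analyses that left out 1 array. The other members were Myl9, Col6a2, Col15a1, Vcan, Ccdc69, Col5a1, Emp1, Tuba1a and Pcolce. Of the 15 rises, 5 were still called without DOX replicate 1, 9 without DOX replicate 2, 11 without saline replicate 1 and 12 without saline replicate 2. Of the 15 falls, 7 were still called without DOX replicate 1, 9 without DOX replicate 2, 12 without DOX replicate 3, 11 without saline replicate 1 and 14 without saline replicate 2. All 30 kept their direction in each of these analyses, which was fixed in advance because the groups of each gene did not overlap. Where a gene has several probe sets the brightest was read, and some of the others were not called: 1 of 3 was called for Fam107a, Tfrc and Acss1, 1 of 8 for Vcan, and a second probe set of Synpo had a fold change of the opposite sign (-0.39).

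To describe pathways, 1 probe set per gene was used, the brightest one, and the share called among all 18193 genes is the background: 1.06% were higher and 2.18% lower after DOX, and 0.704% and 1.56% without saline replicate 3. The median log2 fold change over all genes was 0.0040, and 52.0% of genes were above 0. An unadjusted p under 0.05 by limma was found in 7275 of all 45037 probe sets. Members of 29 of the 47 gene lists were called, and the lists that follow were chosen with earlier results of these data known.

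Genes of fatty acid uptake and oxidation were higher after DOX. All 26 measured members had fold changes above 0, 6 were called higher and none lower, and the median log2 fold change was 0.36. Acadvl, the very long chain acyl-CoA dehydrogenase that opens mitochondrial beta-oxidation, read 4039, 4391 and 3481 in saline hearts and 6409.7, 5782 and 5816 after DOX. All DOX hearts were above all saline hearts, and the log2 fold change was 0.60 ± 0.084 (adjusted p = 0.0129). Ech1, an auxiliary enoyl-CoA isomerase for unsaturated fatty acids, read 8432, 9131 and 8101 in saline hearts and 14700.0, 12671 and 13098 after DOX (log2 fold change 0.65, adjusted p = 0.0116). The dienoyl-CoA reductase Decr1 (0.66, adjusted p = 0.0388), the trifunctional protein subunit Hadhb (0.43, 0.0471), hormone-sensitive lipase Lipe (1.02, 0.0438) and Acacb, the acetyl-CoA carboxylase that makes malonyl-CoA and so restrains carnitine-dependent import (0.70, 0.0493), made up the 6. Acadm read 9167, 10631 and 8719 in saline hearts and 12107, 11924 and 11255 after DOX and missed the threshold (adjusted p = 0.0564). Saline replicate 3 was the lowest saline heart for Acadvl, Ech1, Decr1, Hadhb, Acacb and Acadm. Without it, 24 of the 26 were above 0, the median was 0.28, and Acadvl (adjusted p = 0.0215) and Ech1 (0.0302) were the 2 still called. Without DOX replicate 1, 0 members were called by limma, and Acadvl and Ech1 then had adjusted p-values of 0.0599 and 0.052. Lipe and Acacb were called in none of the 6 analyses that left out 1 array. In WT hearts 21 of the 26 were above 0, the median was 0.13 and 1 was called.

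The list of PPAR-alpha and fasting targets, which overlaps that pathway in function, had 19 of 20 measured members above 0 and a median of 0.56, and 0.45 without saline replicate 3. PPAR-alpha is the fatty acid-activated nuclear receptor that switches on this programme in heart and liver. Slc25a34, a mitochondrial carrier, read 586, 875 and 409.5 in saline hearts and 2418, 1688 and 1439 after DOX (log2 fold change 1.55, adjusted p = 0.0205, and 0.0364 without saline replicate 3). Ppargc1a, the coactivator of mitochondrial biogenesis, read 1217, 1242 and 1014 in saline hearts and 1648, 1659 and 1596 after DOX (log2 fold change 0.49, adjusted p = 0.0446, and 0.0992 without saline replicate 3). These were the 2 members called. Without DOX replicate 1, DOX replicate 2 or saline replicate 1 the list had 0 calls by limma, and Ppargc1a was called in 0 of the 6 analyses that left out 1 array. Pdk4, which shuts glucose carbon out of the mitochondrion, read 2199, 3177 and 4471 in saline hearts and 9205, 7576 and 3816 after DOX, so that the groups overlapped and the call was missed (adjusted p = 0.219). The lipoprotein lipase inhibitor Angptl4 read 87.1, 57.8 and 88.9 in saline hearts and 435, 252 and 174 after DOX (adjusted p = 0.0778). Ppara itself did not pass (log2 fold change 0.14, adjusted p = 0.6). By contrast, the 39 measured subunits of oxidative phosphorylation had a median of -0.01 (0.02 after quantile normalization) with 1 member called, the complex I subunit Ndufv1 (0.38, adjusted p = 0.0213), and the 26 genes of glucose uptake and glycolysis had a median of 0.01 (-0.01 with array medians subtracted) with 1 called, the glycogen synthase Gys1 (0.21, adjusted p = 0.0468). Gys1 was called in 0 of the 6 analyses that left out 1 array, with an adjusted p of 0.102 without saline replicate 3. Ndufv1 was called without that heart (adjusted p = 0.0253) and lost without DOX replicate 1 or DOX replicate 2.

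The 250 bases before the annotated start of the genes of both lists were read for AGGTCA, the half-site of nuclear receptors such as PPAR, on both strands, and the windows of Acadvl and Slc25a34 are shown with the match in capitals, since these were the called members that hold it. The sequences are from RefSeq on GRCm38.p6 and run 5′ to 3′ along the gene. The Acadvl window lies on the minus strand at chr11:70015429-70015678, with the match starting 87 bases before the start of the gene. The Slc25a34 window lies on the minus strand at chr4:141623835-141624084, with the match starting 119 bases before the start.
Acadvl: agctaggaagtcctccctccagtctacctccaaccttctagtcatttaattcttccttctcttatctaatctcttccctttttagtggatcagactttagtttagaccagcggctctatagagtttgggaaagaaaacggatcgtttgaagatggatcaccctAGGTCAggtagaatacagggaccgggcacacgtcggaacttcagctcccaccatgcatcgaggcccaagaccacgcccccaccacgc
Slc25a34: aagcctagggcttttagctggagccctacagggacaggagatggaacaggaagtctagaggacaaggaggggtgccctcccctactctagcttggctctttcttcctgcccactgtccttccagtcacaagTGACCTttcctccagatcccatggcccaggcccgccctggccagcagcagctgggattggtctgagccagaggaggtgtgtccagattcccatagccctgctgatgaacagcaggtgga
Over all 32851 windows of this length, 14.02% hold the motif, and by gene the share is 15.8%. Among fatty acid genes with a window 3 of 22 hold it, and among PPAR-alpha and fasting targets 5 of 17. Of the members called higher that have a window, 1 of 5 fatty acid genes (Acadvl) and 1 of 2 PPAR-alpha targets (Slc25a34) hold it. A match of 6 letters is a description of these windows and not a binding site.

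Antioxidant and glutathione genes moved in both directions, mostly upwards. Of 30 measured members 6 were called higher and 1 lower, with a median of 0.15. Gclm, the modifier subunit of the enzyme that limits glutathione synthesis, read 286, 264 and 264 in saline hearts and 733, 501 and 427 after DOX (log2 fold change 0.91, adjusted p = 0.024). All DOX hearts were above all saline hearts, and DOX replicate 1 was the highest. The glutathione transferases Gsta3 (0.76, adjusted p = 0.00766), Gstm1 (0.67, 0.00792) and Gstm2 (0.41, 0.0238) and the superoxide dismutase Sod1 (0.48, 0.0138) rose, as did Txnip, which inhibits thioredoxin and so is no antioxidant enzyme (1.48, 0.0385). Gpx1, a selenium-dependent peroxidase, read 2614, 2643 and 3018 in saline hearts and 1707, 2118 and 1868 after DOX and fell (log2 fold change -0.53, adjusted p = 0.0392). Without saline replicate 3 the calls were Gsta3, Gstm1 and Sod1, and Gclm (adjusted p = 0.057) and Gpx1 (0.0976) were lost. Txnip and Gpx1 were called in 0 of the 6 analyses that left out 1 array. Gsta3 and Gstm1 were called in all 6, and the Gstm genes have near relatives whose transcripts may share probes. Hmox1, the inducible haem oxygenase, read 69.4, 75.7 and 95 in saline hearts and 98.7, 95.3 and 71.3 after DOX here (log2 fold change 0.10). In WT hearts it read 68.5, 65.1 and 67.8 with saline and 152, 276 and 134 with DOX and rose (1.09, adjusted p = 0.0269). The interaction for Hmox1 had an unadjusted p of 0.00625 and an adjusted p of 0.464 by limma. Over the whole list, WT hearts had 6 members called higher and 0 lower by limma, with a median of 0.17.

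The 250 bases before the start of Gclm, on the plus strand at chr3:122245307-122245556, were read in the same way for TGACNNNGC, the core of the antioxidant response element bound by NRF2, on both strands. The match starts 134 bases before the start.
Gclm: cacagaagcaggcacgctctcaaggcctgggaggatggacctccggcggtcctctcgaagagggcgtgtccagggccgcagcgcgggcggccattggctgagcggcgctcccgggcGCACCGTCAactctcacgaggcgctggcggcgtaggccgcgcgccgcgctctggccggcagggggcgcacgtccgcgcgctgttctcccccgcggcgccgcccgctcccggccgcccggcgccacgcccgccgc
The core is found in 10.2% of all windows and in 11.5% of genes, and in 6 of the 25 antioxidant genes with a window. Of the 6 members called higher, Gclm, Gsta3 and Sod1 hold it, 3 of 6.

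Collagens and other matrix genes were lower after DOX. Of 33 measured members 29 were below 0, 7 were called lower and 1 higher, and the median log2 fold change was -0.60. Col6a2, a chain of the microfibrillar collagen VI, read 1514, 1176 and 1518 in saline hearts and 354, 561 and 477 after DOX. The groups were well apart, with a log2 fold change of -1.54 ± 0.18 (adjusted p = 0.00766), called in all 6 analyses that left out 1 array. Col15a1, a basement membrane collagen (-1.34, adjusted p = 0.00911), and Col5a1, which sets fibril diameter (-1.13, 0.0116), held in the same 6 analyses. The collagen VI chains Col6a1 (-1.11, 0.0247) and Col6a3 (-1.42, 0.0297), Col1a1 (-1.25, 0.0329) and Col4a2 (-0.52, 0.0437) completed the 7. Col3a1 read 3724, 2889 and 4878 in saline hearts and 375, 1753 and 693 after DOX on its brightest probe set, where DOX replicate 2 kept more than the other DOX hearts and the call was missed (log2 fold change -2.23, adjusted p = 0.0604), while its second probe set was called. Timp3, an inhibitor of matrix proteases, was the 1 member called higher (0.75, adjusted p = 0.036, and 0.0852 without saline replicate 3). Saline replicate 3 was the highest saline heart for Col1a1, Col3a1, Col4a2, Col5a1, Col6a2 and Col6a3, and without it 26 of 33 members were below 0, the median was -0.43, and Col6a2, Col15a1 and Col5a1 were called, 3 lower and 0 higher. Without DOX replicate 1, DOX replicate 3 or saline replicate 1 the count lower was 3 in each. In WT hearts 22 of 33 were below 0, the median was -0.48 and 6 were called lower.

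Of 10 markers of fibroblasts, the cells that make this matrix, 9 were below 0, with a median log2 fold change of -0.32 (-0.28 without saline replicate 3), 5 of them had an unadjusted p under 0.05 and 2 were called lower, the small proteoglycan Lum (2793, 2368 and 2651 in saline, 959.7, 1450.3 and 1531 after DOX, adjusted p = 0.018, called in all 6 analyses that left out 1 array) and Col1a1, which is also in the matrix list and was not called without saline replicate 3 (adjusted p = 0.08). Among the members that did not pass, Dcn was at -0.03 (adjusted p = 0.963) and Pdgfra at -0.22 (0.347) on their brightest probe sets. A second Dcn probe set was called higher (0.50). The 10 fibroblast markers summed to 18856 to 25724 in saline hearts and 18211 to 20452 in DOX hearts, and these ranges overlap. Whether fewer fibroblasts or less matrix RNA per fibroblast lay behind the matrix values was not tested.

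Most smooth muscle markers had fold changes below 0. Of 13 smooth muscle and pericyte markers 11 were below 0 and 2 were called, and the 13 summed to 22016 to 25858 in saline hearts and 16439 to 17873 after DOX. The gap between these sums came from Acta2, smooth muscle actin, and the sums of the other members overlapped between the groups. Acta2 read 9168, 6289 and 13040.0 in saline hearts and 1521, 3091 and 2928 after DOX. Its log2 fold change was -1.91 ± 0.34 (adjusted p = 0.0251), and without saline replicate 3, the highest of the group, it was -1.65 and missed the threshold (adjusted p = 0.0586). The pericyte proteoglycan Cspg4 fell by 0.39 on the log2 scale (adjusted p = 0.0385, and 0.0941 without saline replicate 3). Myl9, the regulatory light chain of smooth muscle myosin, was outside the list and read 1079, 1116 and 1758 in saline hearts and 349, 424 and 495 after DOX (log2 fold change -1.55, adjusted p = 0.0185, and 0.0347 without saline replicate 3). Of the markers that define smooth muscle, Tagln (582, 581 and 388 in saline, 287, 228 and 356 after DOX, adjusted p = 0.136) and Myh11 (371, 433 and 258 in saline, 248, 202 and 287 after DOX, 0.422) did not pass. In WT hearts Acta2 read 1934, 1283 and 1932 with saline and 1484, 943 and 1507 with DOX, so the CHIP-altered saline hearts were the high ones. Acta2 is also re-expressed by activated fibroblasts and stressed cardiomyocytes, and which cells carried the signal was not tested.

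**Figure D3:**
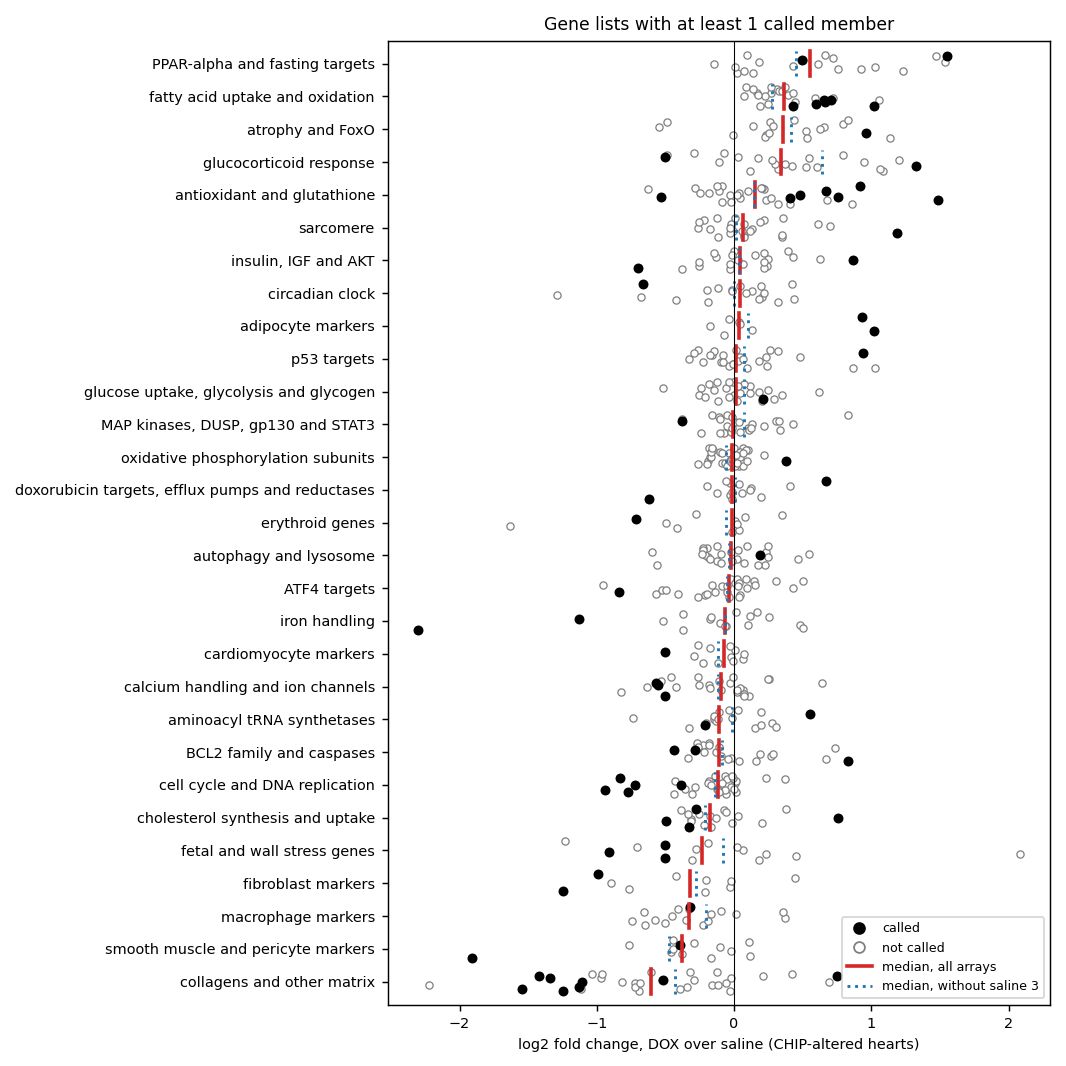
Log2 fold change of DOX over saline in CHIP-altered hearts for the measured members of each gene list with at least 1 called member, with 1 point per gene on its brightest probe set. Filled points passed an adjusted p of 0.05, solid bars are list medians with all arrays and dotted bars medians without saline replicate 3; fatty acid genes all lie above 0 (median 0.36) and most matrix genes below it (median -0.60).

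Cardiomyocyte genes changed little as a set. The 12 cardiomyocyte markers summed to 169630 to 180900 in saline hearts and 162590 to 171540 after DOX, 1 was called lower and the median was -0.07. That gene was Ryr2, the calcium release channel of the sarcoplasmic reticulum (4370.0, 3820.5 and 3999 in saline, 2751, 2761 and 3052 after DOX, log2 fold change -0.50, adjusted p = 0.042). In the list of calcium handling and ion channels 3 of 27 members were called lower: Ryr2, Camk2d, the calcium-dependent kinase (-0.57, adjusted p = 0.043), and Gja1, the ventricular gap junction protein connexin 43 (7389.7, 8658 and 7715 in saline, 5132, 4825 and 6252 after DOX, -0.55, 0.0384). Other probe sets of these genes were not called, and all 3 calls were lost without saline replicate 3, with adjusted p-values of 0.0841 for Ryr2, 0.107 for Camk2d and 0.074 for Gja1. The calcium pump Atp2a2 read 22937, 22787 and 23683 in saline hearts and 22852, 22628 and 22575 after DOX, close to the top of the scale (adjusted p = 0.772). Among 26 sarcomere genes Myot alone was called, with a list median of 0.07. Without saline replicate 3 the median was 0.02 and 2 were called higher, Myot and Ldb3 (log2 fold change 0.44).

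Fetal and wall stress genes did not move together. Of 14 members 3 were called lower: Fhl2, a titin-associated LIM protein (7258, 7402 and 7568 in saline, 4974, 5393 and 5278 after DOX, log2 fold change -0.50, adjusted p = 0.0196), the brain creatine kinase Ckb (-0.91, 0.0203) and the actin-binding protein Tagln2 (-0.50, 0.0432). Without saline replicate 3 the call of Tagln2 was lost (adjusted p = 0.0786) and 2 were lower. Myh7, the slow beta-myosin heavy chain that reappears in stressed adult mouse ventricle, read 1954, 4130.3 and 6962 in saline hearts and 18483, 15565 and 15256 after DOX. All DOX hearts were higher, but the saline hearts varied widely, and the log2 fold change of 2.08 ± 0.48 missed the threshold (adjusted p = 0.0577) and passed it without saline replicate 3 (2.51, 0.0396). The natriuretic peptides Nppa (-0.31, adjusted p = 0.773) and Nppb (-0.71, 0.66) did not pass and their groups overlapped. In the list of atrophy and FoxO genes 15 of 18 members were above 0 with a median of 0.36, and 1 was called, Trim54, a muscle RING finger protein of the Z-disc and M-line (1026, 1019 and 952 in saline, 2469, 1752 and 1769 after DOX, 0.96, 0.0108). Without saline replicate 3 the median of that list was 0.41 and 2 members were called higher. The muscle ubiquitin ligases Fbxo32 (877, 705 and 436 in saline, 2164, 1573 and 912 after DOX, adjusted p = 0.148) and Trim63 (0.14, 0.749) did not pass with all arrays.

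Genes of the DNA damage response and of the cell cycle were read next, because topoisomerase II is a target of the drug. Top2a, the isoform of dividing cells, was dim and fell from 48, 28.8 and 34.3 in saline hearts to 11.2, 11.9 and 14.9 after DOX (log2 fold change -0.62 on values with 32 added, adjusted p = 0.0342, and 0.0651 without saline replicate 3). Top2b, the isoform of cardiomyocytes, read 632, 666 and 655 in saline hearts and 579, 545 and 563 after DOX (adjusted p = 0.0698). The efflux pump Abcb1a, which exports DOX, rose from 183, 141 and 156 to 326, 238 and 260.4 (log2 fold change 0.67, adjusted p = 0.0316, and 0.0726 without saline replicate 3). Of 31 genes of cell cycle and DNA replication 25 were below 0 and 5 were called lower: the cyclins Ccnd1 (-0.94, adjusted p = 0.0489) and Ccnd2 (-0.83, 0.0483), Cdk1 (-0.39, 0.0472) and the helicase subunits Mcm5 (-0.72, 0.0333) and Mcm6 (-0.77, 0.0345). Without saline replicate 3 the list had 4 members called, Ccnd1 and Mcm6 among them, but without DOX replicate 1, 2 or 3 or saline replicate 1 it had 0 by limma. The histone probe sets described above went the other way.

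Of 27 measured p53 targets 1 was called, Sesn1, a stress-induced inhibitor of mTORC1 (1005, 698 and 697 in saline, 1708, 1750.5 and 1221 after DOX, log2 fold change 0.94, adjusted p = 0.0491, and 0.12 without saline replicate 3). For Cdkn1a saline replicate 3 decided the value. The gene read 419, 345 and 2794 in saline hearts and 2129, 1666 and 1071 after DOX, with saline replicate 3 above every DOX heart. The log2 fold change was 1.02 (adjusted p = 0.537) with that heart and 1.95 (adjusted p = 0.0509) without it, against 3.05 (adjusted p = 0.0455) in WT hearts. Mdm2, which p53 induces and which degrades it, read 439, 403 and 731 in saline hearts and 451, 450.1 and 452 after DOX (adjusted p = 0.742). In the BCL2 and caspase list 1 of 23 members rose, the mitophagy receptor Bnip3 (4785, 3982 and 4896 in saline, 9529.9, 8117 and 6838 after DOX, 0.83, 0.0189), and 2 fell, Casp8, the initiator caspase of death receptors (-0.43, 0.0207), and the pore-forming Bak1 (-0.28, 0.0246). The 3 calls held without saline replicate 3 and were lost without DOX replicate 1 and without DOX replicate 2. Casp8 was also lost without DOX replicate 3 (limma, adjusted p = 0.0523) and without saline replicate 1 (0.0518). Bak1 was lost without DOX replicate 3 (0.0557), saline replicate 1 (0.064) and saline replicate 2 (0.0527) too.

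The medians of some stress and hormone lists moved with saline replicate 3. Of 22 glucocorticoid response genes 17 were above 0 with a median of 0.34, which became 0.64 with 19 above 0 without that heart. Sult1a1, a sulfotransferase, rose (648, 536 and 714 in saline, 2049, 1805 and 1147 after DOX, log2 fold change 1.32, adjusted p = 0.0301, and 0.0502 without saline replicate 3), and the receptor gene Nr3c1 itself fell (492, 527 and 507 in saline, 335, 327 and 389 after DOX, -0.50, 0.0159). Fkbp5, a cochaperone induced by the receptor, read 238, 155 and 654 in saline hearts and 884, 791 and 405 after DOX and did not pass (adjusted p = 0.285, and 0.0722 without saline replicate 3). Acute phase genes had a median of 0.06 with 0 of 19 called by limma and 0 at an unadjusted p under 0.05, and a median of 0.42 without saline replicate 3, where the copper ferroxidase Cp was called (1.16, adjusted p = 0.0473). Metallothioneins bind zinc and follow both glucocorticoids and inflammation. Mt2 read 849, 411 and 3513 in saline hearts and 1878, 1268 and 679.9 after DOX (log2 fold change 0.12 with and 0.95 without saline replicate 3, adjusted p = 0.967 and 0.43). Aplnr, the endothelial apelin receptor, was low in saline replicate 3, with 800.4, 778 and 127 in saline hearts and 37.4, 44.5 and 145 after DOX. Its log2 fold change was -2.28 (adjusted p = 0.0916) with that heart and -3.07 (adjusted p = 0.0183) without it.

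The response in CHIP-altered hearts was then set beside that in WT hearts, which share no arrays with it but share its estimate of the spread. In WT hearts 749 probe sets were higher after DOX (1.66%) and 630 lower (1.40%), and by gene 1.74% and 2.23%. Of the 990 probe sets called in CHIP-altered hearts, 917 had the same sign in WT hearts (92.6%, against 59.2% of all probe sets). Both tests called 312 probe sets in the same direction, 31.5% of the CHIP-altered calls and 22.6% of the WT calls, and 4 in opposite directions. The difference between the responses itself, tested as the interaction of genotype and DOX, passed in 0 of 45037 probe sets (0.00%) by limma, with 3914 at an unadjusted p under 0.05 and a lowest adjusted p of 0.0765. No gene was therefore shown to respond differently at this threshold, and that does not show that the responses were equal.

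The 6 genes with the lowest interaction p-values were Cdca4, Atg7, Ccn1, Gm19277, Pfn2 and Fbxl8, with adjusted p-values from 0.0765 to 0.114. Ccn1, the matricellular protein CYR61, read 242, 193 and 227 in CHIP-altered saline hearts and 114, 129.6 and 134 after DOX. In WT hearts it read 223, 168 and 199.5 with saline and 436, 448 and 323 with DOX. It fell in CHIP-altered hearts (log2 fold change -0.67, adjusted p = 0.0327, and 0.0762 without saline replicate 3) and rose in WT hearts (0.92, adjusted p = 0.0145). Atg7, the E1-like enzyme of autophagy, changed by 0.19 (adjusted p = 0.0138) in CHIP-altered and -0.15 (0.0253) in WT hearts, small changes on 1 of its 4 probe sets. Gm19277 read 47, 26.5 and 19.3 in CHIP-altered saline hearts and 108, 87.8 and 103 after DOX. In WT hearts it read 199, 147 and 102 with saline and 47.1, 28.6 and 34.9 with DOX. For Cdca4 and the actin-binding profilin Pfn2 the CHIP-altered fold changes were -0.01 and 0.02, and the WT ones -0.41 and -0.40. Among genes named above, the lowest interaction p-values were those of Kdelr3 (0.000194 unadjusted, 0.255 adjusted), Aqp4 (0.000392, 0.299) and Shld1 (0.00045, 0.306). In the fatty acid list 6 of 26 members had an unadjusted interaction p under 0.05, against 3914 of all 45037 probe sets, and none passed after adjustment. All 6 had the larger rise in CHIP-altered hearts, among them Acadvl (0.00338, adjusted 0.424) and Ech1 (0.00374, adjusted 0.433). Saline replicate 3 was the lowest saline heart for both, and without it their CHIP-altered fold changes were 0.51 and 0.62 rather than 0.60 and 0.65. Interaction p-values without that heart are not given here.

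**Figure D4:**
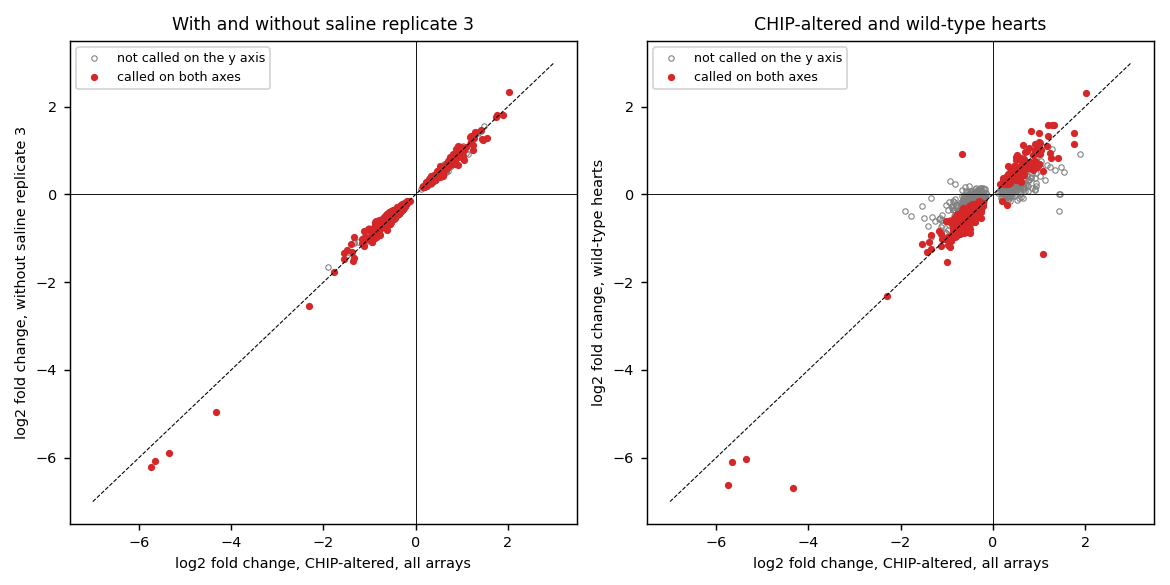
Log2 fold change of the 990 probe sets called in CHIP-altered hearts (x axis, all arrays) against the value without saline replicate 3 (left) and the DOX response of WT hearts (right), with 1 point per probe set and a dashed line where the axes are equal. Filled points were called on both axes, 489 on the left; the points at the lower left are the 4 haemoglobin probe sets.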

How the data were processed

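The arrays were Affymetrix Mouse Genome 430 2.0 arrays hybridised with biotin-labelled RNA from whole hearts. The authors deposited 1 linear intensity per probe set and array, made with Affymetrix Expression Console per the labels; the version, the summary method and any scaling are not given in the sources used here. Of 45037 probe sets, 34945 are annotated to 1 gene, 932 to several and 9160 to none, and only the first kind was named.

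From the deposited intensities log2(intensity + 32) was computed, and a model with 4 group means over the 12 arrays was fitted with limma 3.58.1 in R 4.3.3 (lmFit, eBayes, two-sided), with Benjamini-Hochberg adjustment over all probe sets and a threshold of 0.05. Fold changes of dim probe sets are understated on this scale, and 51.4% of probe sets had a mean under 32 in the 6 arrays. Intensities of different probe sets were not compared. The script was tested on simulated data. The members and gene lists were chosen with earlier results of these data known. The text names the 15 genes with the largest rises and falls among those called with and without saline replicate 3 and not overlapping between groups. It also names the called members of the 47 lists and leading members of some of them. Other lists are given by counts or medians or left out. The remaining named genes are the 6 with the lowest interaction p, Stub1, and the 10 in which saline replicate 3 lay farthest away. The alternatives left out each array in turn, fitted the CHIP-altered arrays alone, added a replicate block, and changed the scaling, the added value, the filter, the variance model and the probe sets. The number of arrays limits the precision. No column of per-sample values was left unused. Python 3.11.15, pandas 2.3.3 and matplotlib 3.10.9 were used for tables and figures.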

Additional observations from a re-analysis of the deposited data

How the results depend on the processing

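With all arrays 990 probe sets were called for DOX in CHIP-altered hearts, 1379 for DOX in WT hearts and 0 for the interaction (limma; 3914 at an unadjusted p under 0.05). Leaving out 1 CHIP-altered array gave 116 (without DOX replicate 1) to 1018 (without saline replicate 2) in CHIP-altered hearts, 828 (without DOX replicate 2) to 2101 (without saline replicate 3) in WT hearts and 0 to 2 for the interaction. With the CHIP-altered arrays fitted alone there were 79 calls, and 4 when saline replicate 3 was left out as well. The methods' t-test on the 6 arrays called 0 after Benjamini-Hochberg adjustment, with 5349 probe sets at an unadjusted p under 0.05. With dim probe sets left out, and so fewer tested, the CHIP-altered count was 1660. Array weights gave 2555 calls in WT hearts. In the 2 settings chosen after seeing the data, both without saline replicate 3, WT calls were 2413 with quantile normalization and 2714 with dim probe sets left out. The interaction had 3 calls with 8 added, with nothing added and with dim probe sets left out, with or without saline replicate 3, 4 with trended and robust variance and 5 with array weights. The causes were not tested.

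Of 91 named probe sets none reversed in any of the alternatives, and between 2 (CHIP-altered arrays alone without saline replicate 3, and the methods' t-test) and 88 (8 added) stayed on their side of the threshold where all 91 were tested. The genes with the largest rises and falls could not reverse when an array was left out, because their groups did not overlap. The deviations of saline and DOX hearts with the same replicate number correlated at 0.085, 0.094 and -0.13, and those with different numbers at -0.23 to 0.16. With 3 arrays per group these values cannot settle whether the arrays were paired. With the number as a replicate block, 1095 probe sets were called in CHIP-altered hearts, 1335 in WT hearts and 0 for the interaction, and 15 of the 91 named probe sets left their side of the threshold.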

Other observations

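Values of gene groups not described above follow. All 7 measured MHC class II genes were below 0 with a median log2 fold change of -0.89, and -1.18 without saline replicate 3; their summed intensity was 4083, 3066 and 1644 in saline hearts and 1137, 1265 and 1522 after DOX. None was called by limma with all arrays (5 at an unadjusted p under 0.05), and H2-Aa was called without saline replicate 3 (-1.55, adjusted p = 0.0373). Of 18 macrophage markers 15 were below 0 with a median of -0.33, and Cx3cr1, the fractalkine receptor of tissue macrophages, was called lower (-0.32, adjusted p = 0.0366, and 0.0841 without saline replicate 3). Cholesterol synthesis and uptake had 15 of 19 genes below 0: Idi1 (-0.50, adjusted p = 0.0212), Dhcr7 (-0.33, 0.043) and Nsdhl (-0.28, 0.0475), enzymes of the pathway, were called lower, of which Dhcr7 (adjusted p = 0.087) and Nsdhl (0.0502) were lost without saline replicate 3, Nsdhl being called in 1 of the 6 analyses that left out 1 array, and Srebf1, whose product governs fatty acid more than sterol synthesis, was called higher (136, 140.0 and 169.5 in saline, 298, 258 and 261 after DOX, 0.75, 0.0205). Of the chaperones and cochaperones that work with CHIP, 22 of 28 were below 0 with a median of -0.20, 0 were called by limma (10 at an unadjusted p under 0.05, of which 8 lower), and the median was -0.09 without saline replicate 3, in which the heat shock genes Hspa1b (114, 90 and 612 in saline hearts) and Hsp90aa1 (1574, 1610.1 and 3746) were high.

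Single calls in other lists were the leucyl tRNA synthetase Lars (0.55, adjusted p = 0.0143) and the glycyl one Gars (-0.21, 0.031), Pik3r1, the regulatory subunit of PI3K (0.86, 0.021), and Igfbp7 (-0.70, 0.0121). The others were Mapk9, a kinase of the JNK family (-0.38, adjusted p = 0.00997), the proline synthesis enzyme Aldh18a1 (-0.84, 0.0251), the clock repressor Bhlhe40 (-0.66, 0.0475) and the lipid droplet protein Cidea (0.93, 0.0104). Without saline replicate 3 the calls of Gars (adjusted p = 0.0761), Aldh18a1 (0.0506) and Bhlhe40 (0.111) were lost. Without DOX replicate 1, Mapk9 was the only one of these 8 genes still called. Cidea is from the list of adipocyte markers, where 5 of 8 were above 0 (median 0.04) and 2 were called higher, Lipe being the other. That list summed to 516 to 684 in saline hearts and 966 to 1300 after DOX, and whether the fat content of the samples differed was not tested. The clock output gene Dbp was called without saline replicate 3 (-1.84, adjusted p = 0.0328) and not with it (-1.29, 0.178). No member was called in 18 lists with all arrays. Among these, 20 of 23 chemokines and cytokines (median -0.18, 6 at an unadjusted p under 0.05) and 16 of 22 interferon-stimulated genes (-0.10, 4 such) were below 0, and all 22 of the interferon-stimulated genes were below 0 without saline replicate 3. Over all probe sets 7275 of 45037 had such a p by limma, and the count of 4 among 22 is close to that share. The medians of the 25 cytosolic ribosomal proteins (-0.01), the 17 endothelial markers (0.01) and the 13 T and NK cell markers (-0.02) were close to 0.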
